A study of Mus musculus with 7 samples.

Results

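The growth hormone, STAT5, IGF1 and Mup genes are 10 genes of mouse liver: the growth hormone receptor gene *Ghr*, the signalling gene *Stat5b*, the feedback genes *Socs2* and *Cish*, the repressor gene *Bcl6*, the circulating products *Igf1* and *Igfals*, and the urinary protein genes *Mup3*, *Mup20* and *Mup21*. They were chosen by symbol, and all 10 were found among the 14851 Ensembl identifiers of the deposited table and among the 12545 genes that were tested. The livers came from 4 male Albumin-Cre; p53FL/FL mice (FL), in which floxed *Trp53* is deleted, and from 3 male Albumin-Cre; p53WT/WT mice (WT), whose *Trp53* is intact and which have that Cre transgene too. All mice were on a C57BL/6J (N10) background, had reached an age of about 70 days and were killed 8 h after a morning intraperitoneal injection of CCl4, a solvent that hepatocytes convert into toxic radicals, at 1 mL/kg of a 20% stock in corn oil. The Albumin promoter drives Cre in hepatocytes, and which other liver cells keep *Trp53* was not measured here. All 7 livers had received CCl4, and no liver without CCl4 and no untreated liver was analysed here.

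The pituitary releases growth hormone, which binds GHR on hepatocytes and activates the kinase JAK2. JAK2 phosphorylates STAT5B, which enters the nucleus and switches on *Igf1*, the gene for the main circulating growth factor, *Igfals*, which keeps IGF1 in a large complex in blood, and *Socs2* and *Cish*, which damp the receptor. In males, growth hormone comes in pulses, and this pattern sustains male-biased liver genes, among them many Mup genes, whose products carry pheromones into urine. BCL6 represses many genes that STAT5 activates.

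Sequences are shown first for the Mup genes, because RNA reads of near-identical copies cannot always be given to 1 gene, and the counts of these genes carry that limit. The stretches are the first 90 coding bases from a point that all 6 genes share, on the minus strand of the GRCm38 genome with GENCODE vM21 gene models, and each joins parts of 2 coding exons between the positions given. Capitals mark bases that differ from *Mup3*.
*Mup3* (chr4:62086889-62087168, minus strand): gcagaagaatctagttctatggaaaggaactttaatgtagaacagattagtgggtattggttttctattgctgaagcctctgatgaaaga
*Mup21* (chr4:62150284-62150698, minus strand): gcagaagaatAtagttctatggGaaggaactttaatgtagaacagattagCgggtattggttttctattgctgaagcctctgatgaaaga
*Mup20* (chr4:62053569-62053995, minus strand): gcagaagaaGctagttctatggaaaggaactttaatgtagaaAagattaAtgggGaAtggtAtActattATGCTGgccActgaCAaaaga
*Mup7* (chr4:60069822-60070249, minus strand): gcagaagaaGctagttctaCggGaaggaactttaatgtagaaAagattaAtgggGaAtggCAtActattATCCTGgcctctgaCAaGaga
*Mup11* (chr4:60661819-60662246, minus strand): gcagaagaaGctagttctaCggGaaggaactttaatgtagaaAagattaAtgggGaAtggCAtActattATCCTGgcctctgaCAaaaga
*Mup17* (chr4:61595282-61595709, minus strand): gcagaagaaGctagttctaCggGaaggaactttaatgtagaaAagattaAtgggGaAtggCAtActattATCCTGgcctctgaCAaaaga
*Mup21* differed from *Mup3* at 3 of the 90 bases, *Mup20* at 16, *Mup11* and *Mup17* at 18 and *Mup7* at 19, and *Mup11* and *Mup17* had the same letters. Over the whole coding sequence *Mup21* was 94.7% identical to *Mup3* and *Mup20* was 87.0% identical to it, while the other 18 Mup genes of the table were 75.2% to 85.0% identical. The reads were 36 bases long at each end, so the share of 36-base stretches that also occur in another gene was counted over all transcripts of each gene. It was 24.3% for *Mup3*, 28.2% for *Mup21* and 60.4% for *Mup20*, whose stretches were shared mostly with the pseudogene *Mup-ps19* (50.4%). For *Mup7*, *Mup11* and *Mup17* it was 89.1%, 81.4% and 83.9%, and for *Mup15* and *Mup19* all stretches were shared. *Mup6*, *Mup5* and *Mup4* shared 17.0%, 29.3% and 30.1%. The counts of single Mup genes are therefore uncertain, those of *Mup3* and *Mup21* less so than those of *Mup20*, *Mup7*, *Mup11*, *Mup17*, *Mup15* and *Mup19*. Among the genes outside the family *Stat5b* shared 13.9% of its stretches with its neighbour *Stat5a*, *Socs2* shared 5.6% with other genes, and *Ghr*, *Bcl6*, *Igfals*, *Igf1* and *Cish* shared 0.0% to 0.2%.

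STAT5 binds the palindrome TTCNNNGAA, which reads as the same pattern on both strands, and the members were searched for it in windows from 250 bases before to 50 bases after each RefSeq start site of GRCm38.p6. At least 1 match occurred in 8.3% of all 32851 windows, at least 2 in 0.457% and at least 3 in 0.0335%. A window was given for 8 of the 10 members, with *Socs2* and *Mup20* lacking one. These 8 genes had 13 windows, of which 5 held a match, in 3 genes. The window of each of these genes with the most matches, or the match nearest a start where they tie, is shown with the matches in capitals, because these are the members whose promoter letters carry the pattern of the factor named in this pathway.
*Cish* (chr9:107296657-107296683, plus strand): ttTTCCTGGAAagTTCTTGGAAatctg
*Igfals* (chr17:24878159-24878185, plus strand): ggctctgccaggtgTTCCTAGAAgagg
*Bcl6* (chr16:23981352-23981461, minus strand): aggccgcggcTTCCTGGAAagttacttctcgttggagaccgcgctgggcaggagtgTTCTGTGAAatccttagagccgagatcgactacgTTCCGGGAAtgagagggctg
The *Cish* stretch lies at the start site and within an exon of *Cish*. The *Igfals* stretch ends 46 bases before a RefSeq start, and the *Bcl6* stretch ends 69 bases before another, within the *Bcl6* gene and outside exons. *Ghr*, *Igf1*, *Stat5b*, *Mup3* and *Mup21* had no match in their windows, and neither did the 14 Mup genes of the table with a window. The other window of *Igfals* with a match held 1, as did the other window of *Bcl6*. A match describes the letters only, and no binding was measured.

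A normalised count is the number of reads counted on a gene after the authors divided it by a size factor for the library and rounded it, and fold changes are differences of mean log2(normalised count + 1), FL minus WT, fitted by limma. Values of single livers are listed throughout in the order of the replicate numbers, 1 to 4 for FL and 1 to 3 for WT. *Trp53* served as the check of the labels. Its normalised counts were 131, 130, 217 and 110 for FL, against 876, 688 and 831 for WT, so the FL livers held 18.4% of the WT level (log2 fold change -2.47, SE 0.23, limma with Benjamini-Hochberg adjustment over all 12545 genes, adjusted p = 0.0447). Library depth was estimated at 11.9 to 19.5 M reads on genes in FL and 15.4 to 17.1 M in WT livers. WT replicate 2 and FL replicate 3 stood apart from the other 5 livers on a first principal component that held 66.7% of the variance, so fold changes that moved are also given without 1 or both of them. The WT livers share 1 mouse source name in the labels and the FL livers carry 2 others, so mouse source and genotype cannot be told apart. In these bulk samples fewer cells of a type and less RNA per cell cannot be told apart either.

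None of the 10 genes passed the test between genotypes (limma, Benjamini-Hochberg adjusted p = 0.999 for each), where 0.0159% of all tested genes did (2 genes, *Trp53* and *Eda2r*). None had an unadjusted p below 0.05, against 3.2% of all tested genes (1.59% higher and 1.6% lower in FL), and the FL and WT livers overlapped for all 10, whereas 4.76% of all tested genes had groups that did not overlap (2.77% higher and 1.98% lower in FL). The mean log2 value was higher in FL for 5 of them and lower for 5, and the median log2 fold change over the 10 was 0.01, the same to 2 decimals as over all tested genes. The fold changes of the receptor, signalling, repressor and IGF genes lay between -0.25 and 0.09 on the log2 scale, and those of *Mup3*, *Mup20* and *Mup21* between 0.43 and 1.08. The 95% intervals of all 10 spanned 0, from narrow for *Igf1* and *Ghr* to wide for *Mup3*.

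**Figure D1:**
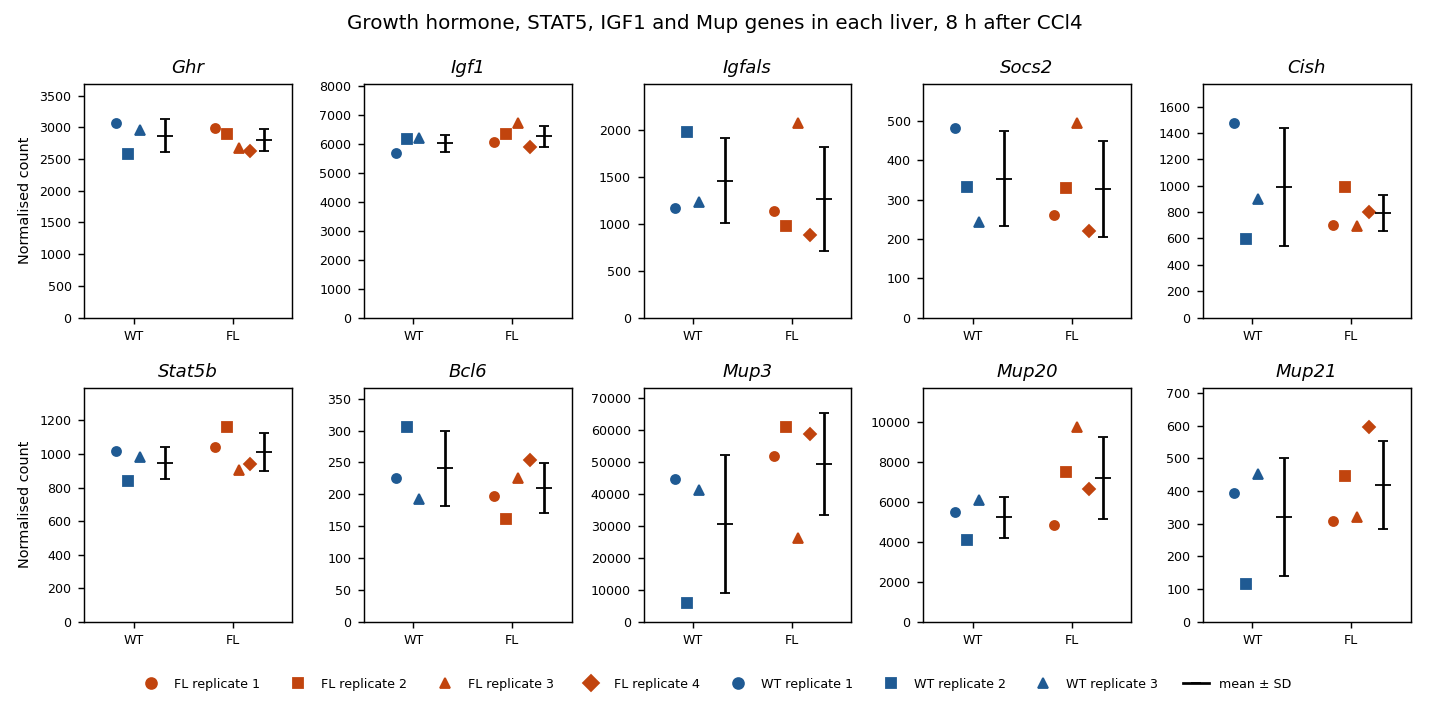
Normalised count (vertical axes, from 0, a scale for each gene) of the 10 genes in each liver, WT in blue and FL in orange, with the mean ± SD of each genotype in black (n = 3 WT and n = 4 FL). WT replicate 2 is lowest of the 7 for 6 of the genes, among them *Mup3* at 5908, while *Igf1* lies between 5697 and 6744 in all livers.

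Levels between genes were compared per kilobase of exon. *Mup3* stood first with a median over the 7 livers of 41859 normalised counts per kb, then *Mup20* with 6582. *Igf1* followed with 624, *Mup21* with 581, *Igfals* with 369 and *Ghr* with 320. *Stat5b* (177 per kb), *Cish* (124), *Socs2* (34.6) and *Bcl6* (33.6) were lower. In this order the ranges of neighbours over the 7 livers lay apart between *Mup20* and *Igf1*, between *Ghr* and *Stat5b* and between *Cish* and *Socs2*, and all other neighbours overlapped. The exon length counts every annotated exon of a gene, so that the per-kilobase level of a gene with long, rarely used exons is understated.

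The receptor gene varied little among livers, with the highest at 1.19 times the lowest. *Ghr* (chr15:3317760-3583492, minus strand) read 2984, 2897, 2673 and 2630 normalised counts for FL, against 3076, 2578 and 2961 for WT. The highest and the lowest liver were both WT, and every FL liver lay between them. The means were 2796 ± 171 in FL (SD, n = 4) and 2872 ± 261 in WT (SD, n = 3), and the log2 fold change, FL relative to WT, was -0.036 with an SE of 0.11 (limma 95% interval -0.28 to 0.21), and -0.11 without WT replicate 2.

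*Stat5b*, whose product carries the growth hormone signal to the nucleus, lies on chromosome 11 (chr11:100780731-100850724, minus strand), as *Trp53* does. It read 1040, 1162, 903 and 942 for FL, against 1020, 839 and 982 for WT. The groups overlapped, with the highest liver in FL and the lowest in WT. The log2 fold change was 0.09 (SE 0.13, 95% interval -0.20 to 0.39, limma p = 0.483, adjusted p = 0.999, exact permutation p = 0.486), and 0.0088 without WT replicate 2.

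*Socs2* and *Cish* encode inhibitors that STAT5 induces and that act back on the receptor. *Socs2* (chr10:95385362-95417180, minus strand) read 261, 330, 496 and 221 for FL, against 483, 333 and 244 for WT. FL replicate 3 and WT replicate 1 were the highest and the other 5 livers were between 221 and 333, so high and low livers occurred in each genotype. The log2 fold change was -0.12 (SE 0.32, 95% interval -0.86 to 0.61), and it was -0.36 (SE 0.26) without WT replicate 2 and FL replicate 3. *Cish* (chr9:107296026-107302784, plus strand), which carries the pair of STAT5 motif matches shown at its start site, read 699, 987, 698 and 798 for FL, against 1479, 599 and 897 for WT. WT replicate 1 was the highest and WT replicate 2 the lowest of the 7, and all FL livers fell between them. Its log2 fold change was -0.23 (SE 0.29, 95% interval -0.90 to 0.43). Without WT replicate 2 it was -0.55 (limma unadjusted p = 0.0339, adjusted p = 0.789). Without WT replicate 1 it was 0.10, so its sign rested on WT replicate 1.

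*Bcl6* (chr16:23965052-23988852, minus strand), with up to 3 motif matches in a window, is itself lowered by STAT5 in liver. It read 198, 161, 226 and 254 for FL, against 225, 306 and 192 for WT. WT replicate 2 held the highest value, FL replicate 2 held the lowest and the rest were mixed. The log2 fold change was -0.19 (SE 0.21, 95% interval -0.68 to 0.30, limma p = 0.390, adjusted p = 0.999, exact permutation p = 0.486). It was -0.007 without WT replicate 2 and -0.049 without FL replicate 3 as well.

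*Igf1* was the least variable of the 10 genes. At chr10:87858265-87937042, plus strand, it read 6060, 6366, 6744 and 5905 for FL, against 5697, 6179 and 6207 for WT. The highest liver was 1.18 times the lowest, the groups overlapped, FL replicate 3 was the highest, and WT replicate 2 lay between the other WT livers. The means were 6269 ± 370 in FL and 6028 ± 287 in WT, and the log2 fold change was 0.06 (SE 0.10, limma 95% interval -0.18 to 0.29, p = 0.593, exact permutation p = 0.400). *Igfals*, whose product stabilises circulating IGF1, behaved otherwise. At chr17:24865997-24882010, plus strand, it read 1139, 971, 2077 and 876 for FL, against 1170, 1977 and 1226 for WT. FL replicate 3 and WT replicate 2 were the highest, and the other 5 livers lay between 876 and 1226. The log2 fold change was -0.25 (SE 0.32, 95% interval -0.98 to 0.49), and -0.008 without WT replicate 2. With both of those livers left out it was -0.28 with an interval from -0.53 to -0.02 (limma unadjusted p = 0.0386, adjusted p = 0.484).

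**Figure D2:**
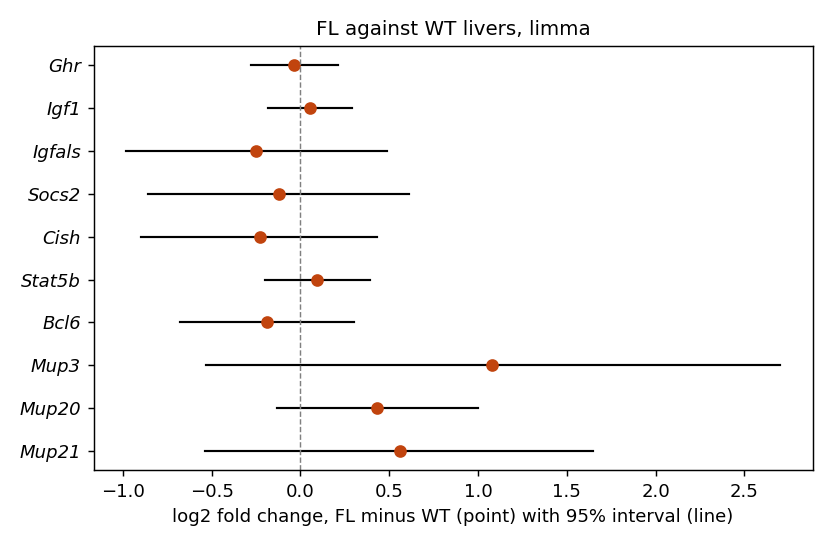
log2 fold change of FL relative to WT livers (points) with the limma 95% interval (lines) for the 10 genes, with no difference at the dashed line. Every interval spans 0, and that of *Mup3* is the widest, from -0.53 to 2.70.

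The spread between livers of the same genotype was set against that of all 12545 tested genes. *Igf1* lay at percentile 3.77 and *Ghr* at 10.2, so their livers differed less than those of most genes. *Stat5b* lay at 23.9 and *Bcl6* at 58.8. *Cish*, *Socs2* and *Igfals* lay at 77.1, 80.8 and 81.2, and the Mup members at 68.8 for *Mup20*, 92.7 for *Mup21* and 97.7 for *Mup3*. These percentiles were not adjusted for expression level, and over all genes those with low counts spread more.

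**Figure D3:**
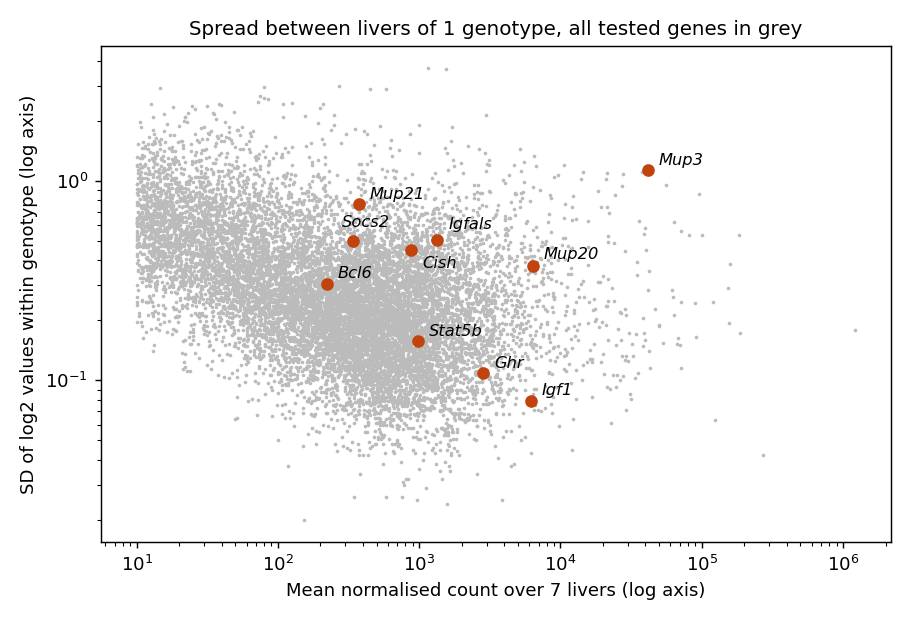
SD of log2 values within genotype (vertical log axis) against mean normalised count over 7 livers (horizontal log axis) for all tested genes in grey and the 10 genes in orange. *Igf1* and *Ghr* sit low for their count and *Mup3* sits among the highest, at percentile 97.7 of spread.

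*Mup3* was the most abundant member. At chr4:62083476-62087342, minus strand, it read 51688, 60969, 26230 and 58850 normalised counts for FL, against 44705, 5908 and 41167 for WT. WT replicate 2 was far below all others and FL replicate 3 was the next lowest, while the other 3 FL livers lay above the other 2 WT livers. The means were 49434 ± 15971 in FL and 30593 ± 21451 in WT, a log2 fold change of 1.08 with an SE of 0.70 (limma 95% interval -0.53 to 2.70, p = 0.160, exact permutation p = 0.257). Leaving out WT replicate 2 alone gave 0.13 (SE 0.33). Leaving out WT replicate 2 and FL replicate 3 gave 0.41 (SE 0.12, limma unadjusted p = 0.00699, adjusted p = 0.322). In that fit 3 of the 10 members (*Cish*, *Igfals* and *Mup3*) had an unadjusted p below 0.05, against 9.69% of all tested genes.

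*Mup20*, the gene of the pheromone darcin, did not follow *Mup3* in FL replicate 3. At chr4:62050234-62054158, minus strand, it read 4837, 7503, 9781 and 6679 for FL, against 5484, 4124 and 6108 for WT. FL replicate 3 was the highest of the 7 and WT replicate 2 the lowest, and FL replicate 1 lay below 2 of the WT livers. The log2 fold change was 0.43 (SE 0.24, 95% interval -0.13 to 1.00, limma p = 0.115, exact permutation p = 0.229), and without FL replicate 3 and WT replicate 2 it was 0.11 (SE 0.16).

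*Mup21*, the closest copy of *Mup3* in the coding stretch shown, was the lowest of the Mup members. At chr4:62147932-62150863, minus strand, it read 309, 445, 321 and 596 for FL, against 393, 115 and 452 for WT. WT replicate 2 was again the lowest and FL replicate 4 the highest, with the groups overlapping. The log2 fold change was 0.56 (SE 0.47, 95% interval -0.54 to 1.65), and without WT replicate 2 it was -0.07 (SE 0.26).

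The deposited table held 21 Mup genes in all, of which 16 passed the filter on low values. Of these 0 passed the test by limma with Benjamini-Hochberg adjustment, and 0 had an unadjusted p below 0.05, the smallest being 0.0571 for *Mup4*. Each of the 16 tested had a higher mean log2 value in FL, where 51.6% of all tested genes did, with a median log2 fold change of 1.36. WT replicate 2 was the lowest of the 7 livers for 15 of the 16, against 34.0% of all tested genes. FL replicate 3 was the lowest of the 4 FL livers for 14 of the 16, against 34.8% of all tested genes. Without WT replicate 2 only 4 of the 16 were higher in FL and 12 were lower, with a median log2 fold change of -0.16. The shared direction was thus lost when that liver alone was left out. Without WT replicate 2 and FL replicate 3, 15 of the 16 were higher in FL, with a median of 0.41 and a range from -0.14 to 1.32. These genes share reads, so they do not count as separate measurements. The 5 that were not tested, *Mup2*, *Mup5*, *Mup6*, *Mup13* and *Mup19*, lay between 0 and 29 normalised counts in all livers.

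*Mup7*, *Mup11* and *Mup17* had the widest range of the 16 over the livers. *Mup7* read 767, 2656, 68 and 2010 for FL, against 764, 2 and 1811 for WT. *Mup11* read 1673, 3940, 187 and 1653 in FL and 1346, 2 and 2081 in WT. *Mup17* read 758, 1496, 62 and 493 in FL and 562, 5 and 728 in WT. In all of these WT replicate 2 was at a few normalised counts and FL replicate 3 was below every liver other than it, the same pair of livers that were lowest for *Mup3*. *Mup4* differed in that WT replicate 1 was low too, with 39, 29, 28 and 55 in FL and 4, 2 and 52 in WT. Among the 18 Mup genes other than the members, 15 were at or below the value of 3 reads in WT replicate 2, 3 were so in FL replicate 3, and 0 to 2 in the other livers.

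Summing all 21 Mup genes removes the division of shared reads between them. It does not bring back reads the counting may have dropped as ambiguous, and how such reads were treated is not given in the sources used here. Mup pseudogenes are not in the sum, so any reads given to them are missing too. This limit bears most on *Mup20*, which shares 50.4% of its 36-base stretches with *Mup-ps19*. The sums were 60804, 78337, 36832 and 71005 normalised counts for FL, against 53785, 10189 and 53268 for WT. The means were 61744 ± 18098 in FL and 39081 ± 25022 in WT, and the mean log2 difference was 0.95, which came to 0.15 without WT replicate 2 and to 0.38 without it and FL replicate 3. The composition of the sum also differed among livers. *Mup20* made up 7.96%, 9.58%, 26.6% and 9.41% of it for FL, against 10.2%, 40.5% and 11.5% for WT. The high shares were those of FL replicate 3 and WT replicate 2, the livers where the sum was lowest, while the shares of the remaining 5 livers lay between 7.96% and 11.5%. The 18 Mup genes without *Mup3*, *Mup20* and *Mup21* summed to 3970, 9420, 500 and 4880 in FL and to 3203, 42 and 5541 in WT.

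**Figure D4:**
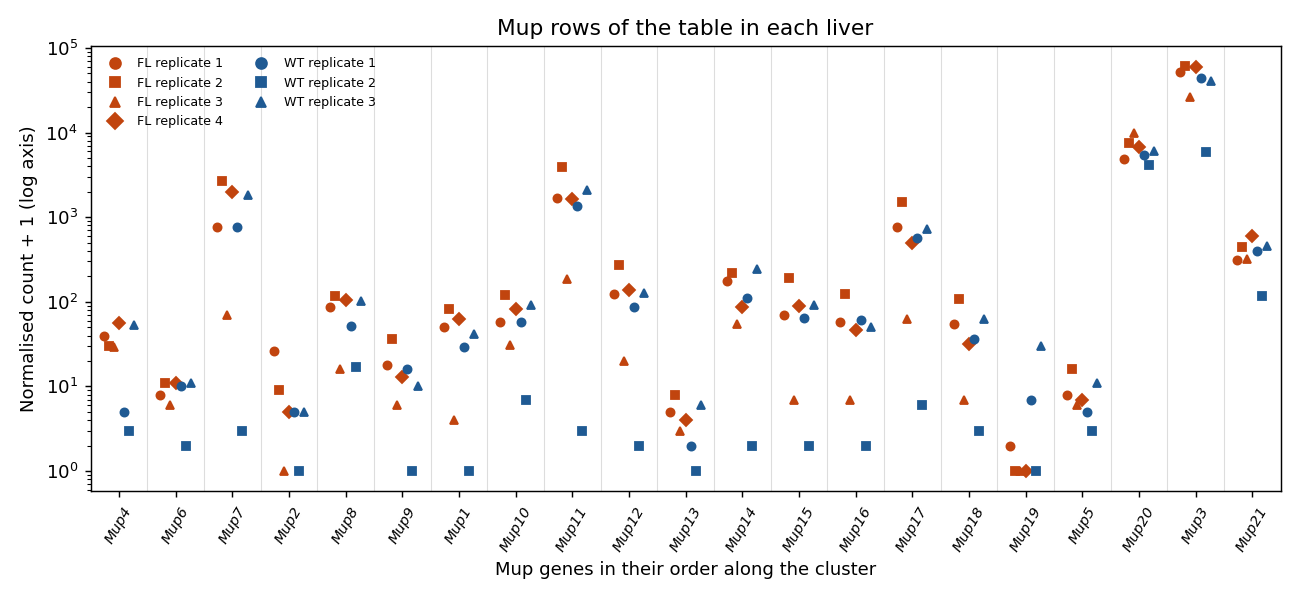
Normalised count plus 1 (vertical log axis) of all 21 Mup genes of the table in each liver, FL in orange and WT in blue, in their order along chromosome 4. WT replicate 2 (blue squares) is at or near the bottom for most genes, at 2 for *Mup7* and *Mup11*, but at 4124 for *Mup20*.

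The other genes of the pathway were read from lists of known components, chosen with earlier results of these data in view. Of 16 growth hormone receptor and signalling genes, members included, all were tested and 0 passed the adjusted threshold (limma with Benjamini-Hochberg adjustment), with 7 higher and 9 lower in mean in FL. The kinase gene *Jak2* read 514, 439, 274 and 401 in FL and 513, 290 and 515 in WT, and *Stat5a* read 209, 180, 222 and 162 in FL and 183, 246 and 179 in WT. The groups overlapped for both. The phosphatase gene *Ptpn6* was highest in WT replicate 2 (596) and FL replicate 3 (438) and lay between 234 and 304 in the other livers. *Grb10*, an adaptor that dampens insulin and growth factor receptors, was 1 of the 16 whose groups did not overlap, against 4.76% of all tested genes, with 112, 98, 113 and 96 in the FL livers below 138, 193 and 149 in the WT livers. Its log2 fold change was -0.60 (SE 0.16, limma unadjusted p = 0.00631, adjusted p = 0.999, exact permutation p = 0.0286, the smallest that 35 splits of 7 livers can give). It was -0.49 without WT replicate 2 and FL replicate 3.

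Of 16 genes of the IGF axis 15 were in the table, 11 were tested and 0 passed the adjusted threshold, with 6 higher and 5 lower in mean in FL. The receptor genes were *Insr*, at 1333 to 1501 over the 7 livers, *Igf2r*, which clears IGF2, at 724 to 1170, and *Igf1r*, at 6 to 11 and too low to be tested. *Igfbp1*, a stress-responsive IGF binding protein, read 28205, 35820, 9253 and 37469 for FL, against 18842, 3730 and 15750 for WT. WT replicate 2 and FL replicate 3 were the lowest, as for *Mup3*, and the other FL livers lay above the other WT livers. Its log2 fold change was 1.23 (SE 0.67, limma p = 0.104, exact permutation p = 0.200), and without WT replicate 2 it was 0.50 (SE 0.51, limma p = 0.357, adjusted p = 0.833). Without WT replicate 2 and FL replicate 3 it was 0.96 (SE 0.14, limma unadjusted p = 6.53e-05, adjusted p = 0.0849). In that fit 3 of the 11 tested genes of the list had an unadjusted p below 0.05, against 9.69% of all tested genes. *Igfbp7* and *Igfbp5* were highest in WT replicate 2 (2365 and 94) and next in FL replicate 3 (1508 and 70), the reverse order to *Igfbp1*. *Igfbp4*, which binds IGF1 in tissue, lay between 18091 and 26461 with groups that overlapped.

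Male-biased liver genes, many of which depend on pulsed growth hormone, were 15 in number, all tested. None passed the adjusted threshold by limma, 2 had an unadjusted p below 0.05 against 3.2% of all tested genes, and 14 had a higher mean in FL against 51.6%. Their median log2 fold change was 0.41 against 0.01 over all tested genes. The lowest liver was WT replicate 2 for 12 of the 15, against 34.0% of all tested genes. Without it 5 of the 15 were higher in FL and 10 were lower, with a median of -0.16, and without FL replicate 3 as well 8 were higher and 7 lower. In the fit without WT replicate 2, 6 of the 15 had an unadjusted limma p below 0.05, against 5.95% of all tested genes. Their log2 fold changes as a list ran from -1.07 to 0.66. With FL replicate 3 left out as well it was 8 of the 15, against 9.69%, and the list ran from -0.98 to 0.60. None of these passed the adjusted threshold. *Hsd3b5*, a male-specific steroid dehydrogenase, read 457, 550, 251 and 495 in FL and 779, 2 and 633 in WT. *Elovl3*, a fatty acid elongase, read 3861, 3227, 762 and 6708 in FL and 2738, 87 and 3372 in WT. *Slco1a1*, a bile acid and steroid transporter, read 2302, 2975, 2142 and 2411 in FL and 2420, 160 and 3068 in WT. For all of these the lowest liver was WT replicate 2. WT replicates 1 and 3 lay within the FL range for *Elovl3* and above it for *Hsd3b5*. *Serpina1e* read 68143, 102597, 112769 and 130680 in FL and 58503, 28382 and 69708 in WT, with a log2 fold change of 1.05 (SE 0.35, limma unadjusted p = 0.0177, adjusted p = 0.999) and of 0.60 without WT replicate 2 and FL replicate 3. *C6*, a complement component, read 3290, 3734, 3814 and 3514 in FL and 2765, 2459 and 3411 in WT (log2 fold change 0.33, SE 0.13, limma unadjusted p = 0.0382, adjusted p = 0.999). The fold change of *C6* was 0.22 without WT replicate 2 and 0.19 without FL replicate 3 as well, with limma adjusted p = 0.789 and 0.611, and neither had an unadjusted p below 0.05.

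Many female-biased genes were highest where these were lowest. Of 19 listed 16 were in the table, 13 were tested, 0 passed the adjusted threshold by limma and 10 had a lower mean in FL, with a median log2 fold change of -0.31. This was so for 6 of the 13 without WT replicate 2, with a median of 0.15, and without FL replicate 3 as well for 7, with a median of -0.34. WT replicate 2 was the highest of the 7 livers for 9 of the 13, against 31.6% of all tested genes. *Cyp2a4*, a female-biased steroid hydroxylase, read 11, 8, 337 and 24 in FL and 9, 1468 and 34 in WT, and *Cyp2b9* read 5, 0, 3 and 3 in FL and 1, 60 and 3 in WT. *Cyp2b10*, a drug-metabolising cytochrome, read 289, 83, 256 and 151 in FL, all below 348, 3040 and 302 in WT (log2 fold change -1.96, SE 0.82, limma unadjusted p = 0.0435, adjusted p = 0.999), and the log2 fold change was -0.89 without WT replicate 2. *Acot3*, a peroxisomal thioesterase, *Prom1* and *Ntrk2* were also highest in WT replicate 2, at 1073, 105 and 283, and reached at most 521, 26 and 24 in the other livers. *Sult1e1*, an oestrogen sulphotransferase on this list, was instead lowest there, with 307, 283, 226 and 368 in FL and 384, 17 and 529 in WT, and so was *Cyp4a14*, a fatty acid hydroxylase, with 15581 against 16435 to 37055 in the other livers.

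Among 12 transcription factors and receptors known for sex-biased or Mup transcription 0 passed the adjusted threshold by limma. The groups did not overlap for 2 of the 12, *Zhx2* and *Cebpa*, both higher in FL, against 2.77% of all tested genes in that direction. An unadjusted p below 0.05 was found for 1 of the 12, against 3.2% of all tested genes. *Cux2*, a female-biased repressor of male-biased genes, read 103, 108, 668 and 31 in FL and 40, 448 and 264 in WT. FL replicate 3 and WT replicate 2 held the highest values. *Zhx2*, which is known to activate Mup genes, read 453, 454, 532 and 502 in FL, above 442, 387 and 431 in WT (log2 fold change 0.21, SE 0.11, limma p = 0.101, exact permutation p = 0.0857). *Cebpa*, a hepatocyte transcription factor gene, read 7169, 7099, 6823 and 6160 in FL, above 5954, 4668 and 5898 in WT (log2 fold change 0.31, SE 0.13, limma unadjusted p = 0.0376, adjusted p = 0.999). It was 0.20 without WT replicate 2 and 0.20 without FL replicate 3 as well, with limma adjusted p = 0.789 and 0.540, and neither had an unadjusted p below 0.05. The fold change of *Zhx2* was 0.15 and 0.10 under the same omissions. *Hnf4a* had a log2 fold change of 0.31 as well, with groups that overlapped.

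**Figure D5:**
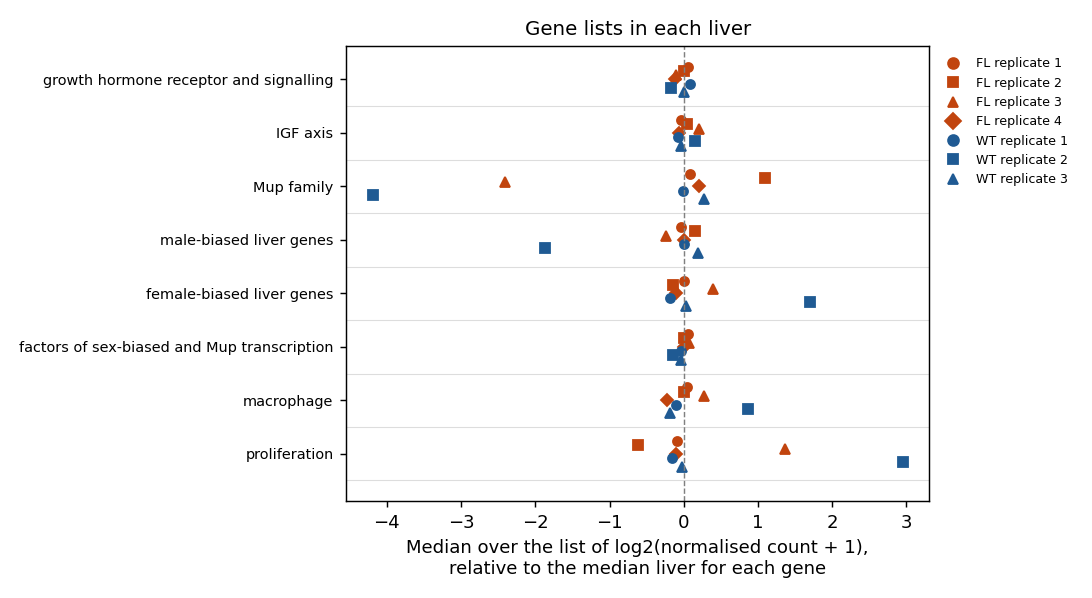
For each list of genes (rows), the median over its tested genes of log2(normalised count + 1) relative to the median liver for each gene (horizontal axis), 1 point per liver, FL in orange and WT in blue. WT replicate 2 lies at -4.19 for the Mup family, at -1.87 for male-biased genes and at 1.70 for female-biased genes, while for growth hormone signalling all livers lie between -0.17 and 0.09.

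The markers of other cells varied beside the Mup genes. WT replicate 2 was the highest of the 7 livers for 5 of 5 macrophage markers, 5 of 5 stellate cell and fibroblast markers, 6 of 6 tested proliferation genes, 4 of 4 tested lymphocyte markers and 4 of 5 endothelial markers. The same held for 1 of 2 tested neutrophil markers, and for 0 of 5 bile duct and 0 of 4 hepatocyte markers. Over all tested genes the share was 31.6%. FL replicate 3 was the highest FL liver for 4 macrophage, 4 stellate, 6 proliferation, 4 lymphocyte and 4 endothelial markers. It was so for 2 neutrophil, 2 hepatocyte and 0 bile duct markers, against 35.4% of all tested genes. For 5 of 5 bile duct markers FL replicate 3 was the lowest FL liver, against 34.8% of all tested genes. Summed macrophage markers ranged from 3423 to 4773 normalised counts in FL and from 3296 to 7310 in WT, and proliferation genes from 82 to 292 and from 107 to 1116. Stellate markers summed to between 2018 and 2719 in FL and between 1925 and 6008 in WT, and lymphocyte markers to between 29 and 101 and between 25 and 183. Neutrophil markers were low in all livers, at 17 to 57 in FL and 36 to 60 in WT, with *Ly6g* and *Mpo* not matched in the table. Endothelial markers summed to 1950 to 2468 in FL and 1676 to 2736 in WT, and bile duct markers to 603 to 1482 and 879 to 1204. Of the bile duct markers *Krt19* and *Krt7* were lower in every FL liver than in any WT liver and *Sox9* was higher (limma unadjusted p = 0.00464, 0.0205 and 0.00494, exact permutation p = 0.0286, 0.0571 and 0.0571). These were 3 of 5 markers. Over all tested genes 4.76% had groups that did not overlap and 3.2% had an unadjusted p below 0.05. Of the 5 markers 0 passed the adjusted threshold, which *Sox9* did without WT replicate 2 and FL replicate 3 (log2 fold change 1.45, SE 0.16, limma adjusted p = 0.0258). The 4 hepatocyte markers matched, which include albumin, summed to between 1338982 and 1724411 in FL and between 1148213 and 1399884 in WT. WT replicate 2 held the highest WT sum, of which albumin made up 1200274, and normalised counts do not give the share of hepatocytes. Of the 4, *Ttr* was higher in every FL liver than in any WT liver (log2 fold change 0.39, limma unadjusted p = 0.0458, adjusted p = 0.999). The part of other cells in the Mup and sex-biased values was not tested.

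For *Igf1*, *Socs2* and *Mup20* the genes with the nearest pattern over the 7 livers were found by Euclidean distance between row Z-scores, among 9080 genes with a mean of at least 100. For *Igf1* they were *Snx14* (distance 0.66), *Dusp28* (0.67) and *Trafd1* (0.67). For *Socs2* they were *Relb* (0.65), *Dusp11* (0.95) and *Txlng* (0.99), and *Relb* read 298, 319, 428 and 251 in FL and 485, 311 and 275 in WT. For *Mup20* they were *Mid1ip1* (0.67), *Wdr55* (0.79) and *Zbtb7b* (0.80), and no other Mup gene was among these nearest 3. The distances rest on 7 livers and are a description only.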

How the data were processed

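Liver RNA of 4 FL and 3 WT mice, 1 library per liver, was assigned to genotype from the labels. Libraries of polyadenylated RNA were stranded and read from both ends. Per the submitters' processing notes and the paper's methods, the authors made reads with bcl2fastq 2.15.0.4, aligned them with Tophat 2.0.13 and Bowtie 2.2.6.0 to the mouse genome, counted reads per gene with HTSeq 2.2.4.0 and normalised the counts with DESeq2 in R 3.4.2. The notes also list featureCounts without saying what it was used for. The authors rounded these normalised counts before they deposited them, so the deposited whole numbers were taken as a score and not as counts. Because rounding made the original reads ambiguous in libraries where 1 read was worth less than 1 normalised count, no count test was run. The value of 1 read, fitted from the spacing of low values, gave the depth estimates. The value of 3 reads was taken as the floor for a single library, which covers counting error only. The table held 14988 rows for 14851 identifiers, of which 120 were repeated with the same values and entered once. 0 columns of per-sample values were left unused. Symbols came from GENCODE vM21 for 14839 identifiers.

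The genotypes were compared on log2(normalised count + 1) by limma 3.58.1 in R 4.3.3 with a trend of variance on mean. The 12545 genes averaging 10 or more over the 7 livers were tested, with Benjamini-Hochberg adjustment and a threshold of 0.05. Fold changes on this scale understate those of low genes. The exact permutation tests were two-sided, over all 35 ways to split the 7 livers. The step was tested on simulated data. Limma p-values set the difference between genotypes against the spread between these livers within a genotype. Sequences were read from GENCODE vM21 transcripts and RefSeq promoter windows with Python 3.11.15, pandas 2.3.3, NumPy 2.4.6, Biopython 1.88 and Matplotlib 3.10.9.

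The members and lists were chosen with earlier results of these data known. The genes named are the members, every Mup gene, the 3 genes of each pathway list with the smallest p and the 3 with the widest range over livers, *Trp53*, and the 3 nearest in pattern to *Igf1*, *Socs2* and *Mup20*. 1 further gene that this rule names is not reported here. *Jak2*, *Stat5a*, *Igfbp4*, *Insr*, *Igf1r*, *Sult1e1*, *Cyp4a14*, *Eda2r* and the cell type markers were named beyond that rule, after their values were seen. The alternatives tried were a pseudocount of 0.5 or 5, other filters (none, 10 or more in each liver, a mean of 50 or more), quantile or upper quartile scaling, robust or untrended limma, the replicate number as a block, leaving out each liver, and leaving out WT replicate 2 and FL replicate 3 together.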

Additional observations from a re-analysis of the deposited data

Results flagged for a closer look

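In 55 genes, those picked by the naming rule above, the highest and the lowest of the 4 FL livers were compared with the rest by Dixon's criterion at the 95% level. It marks about 1 group in 20 by chance, or about 2.8 in 55 genes not picked for their spread, and 3 genes were marked. Many of these genes, *Cux2* and *Cyp2a4* among them, were picked for a wide range over the livers, and Mup genes share reads. The number marked therefore cannot be set against that rate. *Cux2* read 668 in FL replicate 3 and 31 to 108 in the other FL livers, a gap of 0.879 of the range. *Cyp2a4* read 337 in FL replicate 3 and 8 to 24 in the others, a gap of 0.951. *Mup19* read 1 in FL replicate 1 and 0 in the others, which is below the value of 3 reads. None of the 10 members was marked.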

How the results depend on the processing

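Of 180 fold changes of the 10 members under the alternatives, 173 kept their direction, 7 reversed and 0 passed the adjusted threshold, as 0 Mup and 0 pathway list genes did under any alternative run. *Igf1* reversed to -0.02 with quantile normalisation and *Socs2* to 0.041 with the replicate block. When 1 liver was left out, *Ghr* ranged from -0.11 to 0.015, *Socs2* from -0.36 to 0.13 (0.041 without FL replicate 4 and 0.13 without WT replicate 1), *Cish* from -0.55 to 0.10 and *Mup21* from -0.065 to 0.92. The ranges were 0.02 to 0.08 for *Igf1*, -0.52 to -0.01 for *Igfals*, 0.01 to 0.15 for *Stat5b*, -0.34 to -0.01 for *Bcl6*, 0.13 to 1.59 for *Mup3*, 0.27 to 0.61 for *Mup20* and 0.15 to 1.35 for the Mup sum, where the lowest value was that without WT replicate 2. Without FL replicate 1, *Mup20* had an unadjusted limma p of 0.0232. The cause of these changes was not tested.

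Over all genes 2 passed the threshold. The count was 0 with a pseudocount of 5 (404 genes had an unadjusted p below 0.05), 0 with a minimum of 10 in every liver (356), 0 with a mean of at least 50 (316), 0 in limma without a trend (465) and 0 with the replicate block (110), 1 with quantile normalisation, 0 to 5 with 1 liver left out, and 6 with WT replicate 2 and FL replicate 3 both left out (1215), 2 of which were the genes of the fit to all livers. Replicate numbers mark different mice, and deviations of same-numbered livers correlated at 0.438, -0.483 and -0.661, so the block rests on a shared number only. With 7 livers the smallest exact p is 0.0286, and *Igf1r* and Mup genes near the value of 3 reads are too low for a difference to be detectable at this depth.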
